A study of Mus musculus with 3 samples.

Results

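Aquaporins are channel proteins that let water, and in some family members glycerol, cross cell membranes. Their transcript levels were read in glomerular endothelial cells (GEC) of the adult mouse kidney. The genes were chosen by name, as those of the family whose probe set on the array is annotated with a single gene: Aqp1, Aqp2, Aqp3, Aqp4, Aqp5, Aqp6, Aqp7, Aqp8, Aqp9 and Aqp11. All 10 were found, with 1 probe set each, among 19938 genes measured in this way. The cells came from adult Tg(TIE2GFP)287Sato mice of a mixed, mainly CD-1 background, which carry green fluorescent protein under the Tie2 (Tek) promoter. This promoter of an endothelial receptor gene is also active in some blood cells. The medulla was removed, glomeruli were sieved from the dissociated cortex and trypsinized, and fluorescent cells were sorted. The 3 arrays, called replicates 1, 3 and 5, each took RNA from 1 adult kidney and make up a single group with no untreated, mutant or other kidney compartment beside it. Each level was therefore set against a fixed detection level of 100 (6.64 on the log2 scale). The study used that number as a filter on raw values, and the deposited scale need not be that raw scale. A p-value here weighs no more than the distance from that level against the spread of the 3 arrays. The spread is moderated by a variance taken over many probe sets. For a gene with identical values on all 3 arrays, the spread comes from that shared variance alone.

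In the kidney, water leaves the tubular fluid through a small set of aquaporins that differ by segment. Aqp1 lies in the proximal tubule, the thin descending limb and the descending vasa recta, and also in red cells and in many capillary beds. Aqp2 is the vasopressin-regulated channel of collecting duct principal cells, where Aqp3 and Aqp4 serve as the basolateral exit, and Aqp6 sits in vesicles of intercalated cells. The glomerular capillary itself filters through open fenestrae, and the tubular aquaporins can thus be read as a check for tubule cells in the sorted fraction.

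Of the 10 aquaporins, limma called 1 above the level, Aqp1, and 9 below it. Among all 21789 single-gene probe sets, 16.8% were called above and 74.1% below. With the variance prior of limma taken only from probe sets that had 3 distinct values (the other variance prior), the aquaporins gave the same 1 above and 9 below, beside 15.8% and 72.5% of all probe sets. The median of the 10 aquaporin means was 4.98 log2, beside 5.04 log2 over all of those probe sets. As a group the aquaporins thus sat near the middle of the array, and Aqp1 was the single member that stood out from it.

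The 300 bases around the start sites of Aqp1 and of Aqp2 are shown because these genes stand for the endothelial and the collecting duct side of the family. They are RefSeq promoter windows of the mouse assembly GRCm38.p6, from 250 bases before to 50 bases after the start site, read 5′ to 3′. The Aqp1 window lies on the plus strand at chr6:55336049-55336348 and the Aqp2 window on the plus strand at chr15:99578806-99579105. Capitals mark matches, on either strand, to any of 7 short motifs. These were TATAAA for the TATA box, CCAAT for the box of that name, GGGCGG for the GC box, GGAAGT for the ETS core, AGATAA for the GATA core, TGACG for part of the cAMP response element and TGGAAA for the core of a tonicity element. No match overlapped another in these windows.
Aqp1: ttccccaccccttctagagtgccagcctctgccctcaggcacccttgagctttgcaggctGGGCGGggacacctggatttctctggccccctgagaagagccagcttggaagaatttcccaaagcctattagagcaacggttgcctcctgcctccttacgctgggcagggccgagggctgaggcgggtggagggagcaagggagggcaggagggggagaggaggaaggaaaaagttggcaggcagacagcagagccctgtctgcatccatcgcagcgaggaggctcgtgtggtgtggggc
Aqp2: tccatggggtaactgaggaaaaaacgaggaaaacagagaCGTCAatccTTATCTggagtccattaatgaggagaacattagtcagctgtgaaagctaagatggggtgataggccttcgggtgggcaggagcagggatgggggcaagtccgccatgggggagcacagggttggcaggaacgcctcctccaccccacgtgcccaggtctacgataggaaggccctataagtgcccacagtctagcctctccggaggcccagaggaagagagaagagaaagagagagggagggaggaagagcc

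The Aqp1 window held 1 match, a GC box, and no match to the other 6 motifs. The Aqp2 window held 1 cAMP element core and 1 GATA core, both on the minus strand, and no GC box. Of 32841 promoter windows of this length, 35.7% held a GC box, 20.8% the cAMP element core and 11.2% the GATA core, so each of these matches is common. The ETS core, which ETS factors of endothelium bind, was in neither window and in 23.8% of all windows. Both windows held 8 CpG dinucleotides, beside a median of 7 over all windows. Such matches describe letters only, and a motif without a match says nothing of the factor.

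Aqp1 had a log2 signal of 8.23, 7.74 and 8.79 on replicates 1, 3 and 5, which is 301, 214 and 442 on the linear scale. All 3 arrays lay above the level of 100. The mean was 8.25 ± 0.52 log2 (SD, n = 3), 1.61 ± 0.27 log2 (SE) above the level, with an adjusted p of 0.0169 by limma. Of all probe sets, 92.4% had a lower mean, and of 1035 probe sets for olfactory receptors, genes taken here as a silent background, 1 had a mean as high or higher. With the other variance prior the adjusted p was 0.00349. The call rested on replicate 1 in one respect: without it the difference was 1.62 log2 and the adjusted p 0.0905, although the remaining arrays were both above 100.

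**Figure D1:**
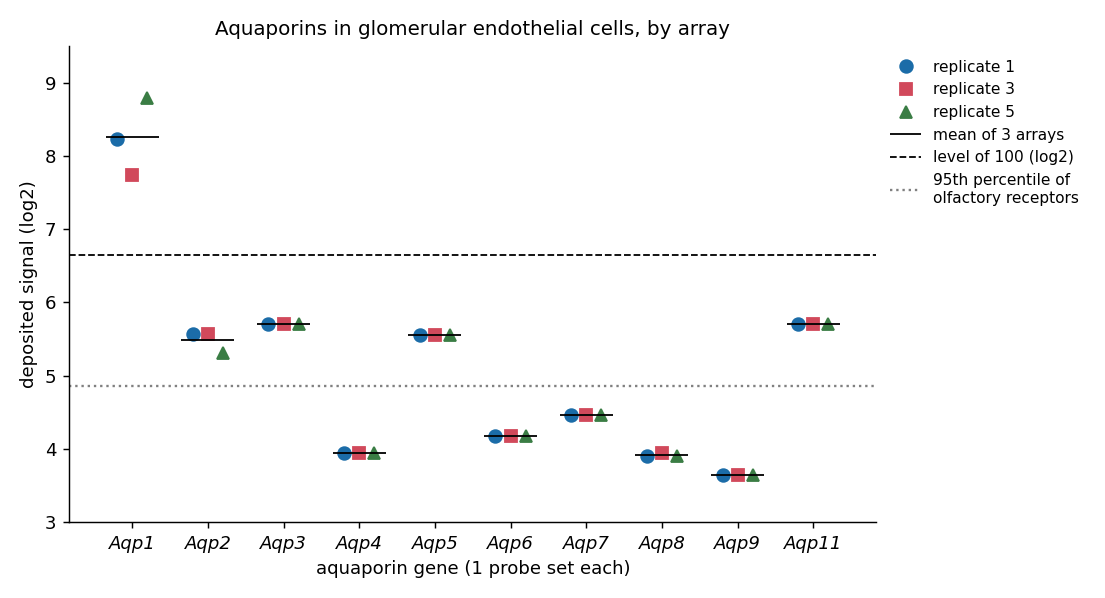
Deposited log2 signal of each aquaporin probe set (points, replicates 1, 3 and 5) with the mean of the 3 arrays (bars). The dashed line is the level of 100 (6.64) and the dotted line the olfactory receptor level (4.85), their 95th percentile. All 3 values of Aqp1 lie above the dashed line, and every value of the other genes lies below it.

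The collecting duct aquaporins were low on every array. Aqp2 had 5.56, 5.57 and 5.31 log2 on replicates 1, 3 and 5, with a mean of 5.48 ± 0.15, and was called below the level (adjusted p = 0.00179). Aqp3, a channel for water and glycerol, had 5.71 log2 on each array and was 0.93 log2 below the level. Its partner Aqp4, the water channel of astrocyte end feet as well as of principal cells, had 3.94 log2 on each array. Aqp6, an intercalated cell channel that also conducts anions, had 4.17 log2 on each array. No array had a value of 100 or more for any of these 4 genes.

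The remaining aquaporins other than Aqp1 were low as well. Aqp5, the channel of salivary, lacrimal and airway glands, had 5.55 log2 on each array. Aqp7 and Aqp9, which carry glycerol out of adipocytes and into hepatocytes, had 4.47 and 3.64 log2 on each array. Aqp8, found in colon, pancreas and testis, had 3.90, 3.94 and 3.90 log2 on replicates 1, 3 and 5. Aqp11, an endoplasmic reticulum channel whose loss gives mice cystic kidneys, had 5.71 log2 on each array. Over all 9 genes called below, the largest adjusted p was 0.00179, and 0.00187 with the other variance prior. Their linear means ran between 12.5 and 52.3.

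A zero spread in these values is not a sign of precision. For 7 of the 9 genes called below, the deposited value was identical on all 3 arrays, as it was for 54.1% of all single-gene probe sets. Some of the values also recur across unrelated probe sets. The value of Aqp6 was shared by 298, 313 and 314 probe sets of the table on replicates 1, 3 and 5, and that of Aqp4 by 281, 293 and 274, each count including the gene itself. The values of Aqp7, in contrast, belonged to no other probe set. For the tied genes the p-value with the other variance prior is the more cautious figure. Probes differ in how brightly they respond, so the order of these levels is not an order of transcript amounts.

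A call below 100 does not show that a gene is silent, and the choice of level divided the low aquaporins. Against the 95th percentile of the olfactory receptors, which was 4.85 log2 or 28.9 on the linear scale, 5 of the 10 aquaporins were called above and 5 below, beside 49.9% above, 43.2% below and 6.91% neither among all probe sets. The other variance prior gave the same counts of aquaporins, beside 44.4%, 36.2% and 19.4% of all probe sets. Those above were Aqp1, Aqp2, Aqp3, Aqp5 and Aqp11, with the largest adjusted p at 0.00766, or 0.0126 with the other variance prior. The number of olfactory receptor probe sets with a mean as high or higher was 15 for Aqp2, 10 for Aqp5, 7 for Aqp3 and 7 for Aqp11. Aqp4, Aqp6, Aqp7, Aqp8 and Aqp9 lay inside the bulk of the olfactory receptors, with between 108 and 362 of 1035 as high or higher. The collecting duct aquaporins were on both sides of this line, as Aqp2 and Aqp3 were above it and Aqp4 and Aqp6 below.

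**Figure D2:**
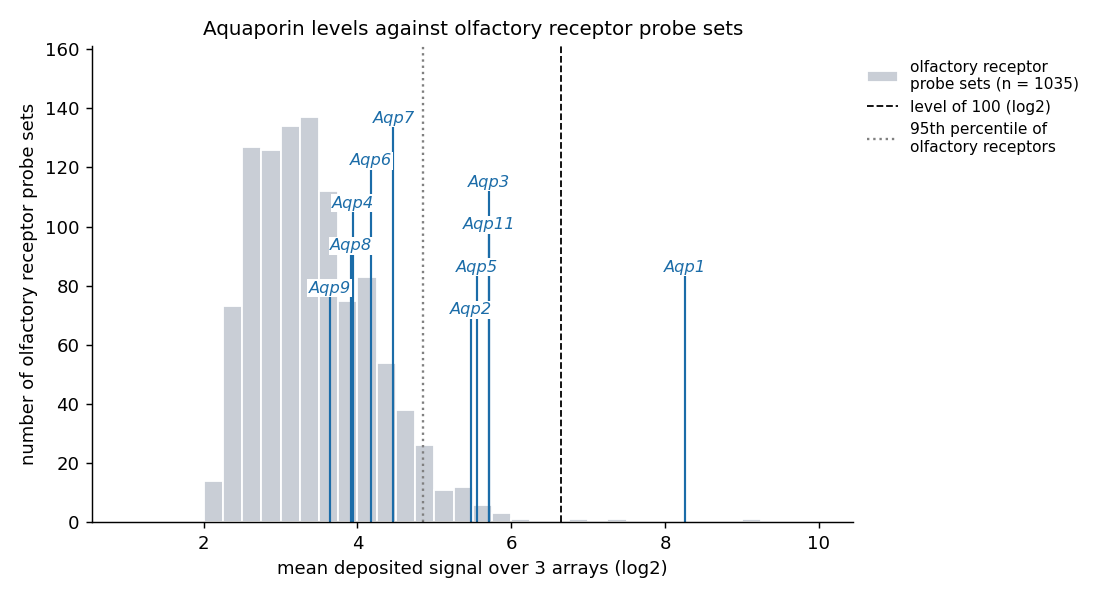
Number of olfactory receptor probe sets (grey bars) by mean log2 signal over the 3 arrays, with the mean of each aquaporin as a labelled line (line heights differ only to separate the labels). Aqp1, at 8.25, lies right of the level of 100 (dashed), while Aqp2, Aqp5, Aqp3 and Aqp11 lie between the 95th percentile (dotted) and that level.

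Aquaporin genes that are neighbours on a chromosome were all below the level of 100 but lay on different sides of the olfactory receptor level. Aqp2, Aqp5 and Aqp6 follow each other on chromosome 15 with 0 genes between them in the RefSeq table, with Aqp2 and Aqp5 above the olfactory receptor level and Aqp6 below it. Aqp7 and Aqp3 are neighbours on chromosome 4 with 0 protein-coding genes between them, with Aqp7 below that level and Aqp3 above it. Within the chromosome 15 cluster, the Aqp5 promoter window held 46 CpG dinucleotides and 3 GC boxes, the Aqp2 window 8 and 0, and the Aqp6 window 4 and 0. A link between promoter sequence and these levels was not tested. The family genes that were not among the 10 were also below the level of 100. Mip, the major channel of lens fibre cells, had 3.78 log2 on each array. Aqp12, which is expressed in pancreatic acinar cells, had 5.15, 5.48 and 5.39 log2 on replicates 1, 3 and 5 (mean 5.34 ± 0.17, adjusted p = 0.00186).

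Aqp1 also had the widest range between arrays among the 10 aquaporins, at 1.05 log2, before Aqp2 at 0.26 and Aqp8 at 0.04 log2, and the other 7 had none. Replicate 5 was 2.07-fold above replicate 3 and 1.47-fold above replicate 1, on a linear scale. A wider range was found in 5.3% of all probe sets, in 5.01% of those called above the level, and in 13.5% of the 1107 probe sets with a mean within 0.5 log2 of Aqp1. The first share counts the 54.1% of probe sets that had no range. A wide range also works against a call above, so the share at a like mean is the closest comparison. Endothelial markers were lowest and highest on the same arrays. Of 8 glomerular endothelial genes, which include Tek and the junction genes Pecam1 and Cdh5, 7 were lowest on replicate 3 and 7 were highest on replicate 5. Deviations from the gene's own mean on replicates 1, 3 and 5 were -0.02, -0.51 and 0.53 log2 for Aqp1. The median deviations of the 8 endothelial genes were 0.15, -0.41 and 0.22 log2. With that median subtracted, the array range of Aqp1 was 0.48 log2, against 1.05 log2 as deposited. In sorted cells, a smaller share of such cells and less RNA per cell cannot be told apart. These and other sources of the differences between arrays were not tested.

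Most genes of arterial and arteriolar endothelium had another order. Of 10 such genes, 7 were highest on replicate 3, where Aqp1 was lowest, and the median deviation of the 10 there was 0.72 log2. The connexin gene Gja5 had 7.37, 8.70 and 5.82 log2 on replicates 1, 3 and 5, Gja4 had 7.60, 8.90 and 8.11 log2 and the kinase gene Bmx 2.95, 5.66 and 2.95 log2. The other 3 differed: Hey1, a target gene of Notch, had 6.63, 5.22 and 7.06 log2 and so the order of Aqp1, the ephrin gene Efnb2 had 10.73, 10.82 and 11.35 log2, and the elastin gene Eln was identical on all arrays at 6.52 log2. From this list 3 genes passed as above, 1 as below (Eln) and 6 as neither, beside 16.8%, 74.1% and 9% of all probe sets. With the other variance prior the call of Eln was lost at an adjusted p of 0.385, and Bmx was the gene called below at 0.0148. Mgp, 1 of the 7 genes highest on replicate 3, varied most of the 10. It had 5.370, 10.177 and 4.796 log2 on replicates 1, 3 and 5 and was called neither. The summed linear level of the 10 genes was 2739, 4734 and 3618 on replicates 1, 3 and 5, and so was highest on replicate 3. The part that cells of larger vessels have in the levels of Aqp1 was not tested. Over the 3 arrays, the deviations nearest to those of Aqp1 by Euclidean distance, among 1533 other probe sets called above the level with 3 distinct values, were those of Ift43 at 0.0121 log2, Ctla2a at 0.064 log2 and Elovl1 at 0.0654 log2. Such likeness over 3 arrays is common, as 22.2% of 1534 such probe sets, Aqp1 included, were lowest on replicate 3 and highest on replicate 5.

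**Figure D3:**
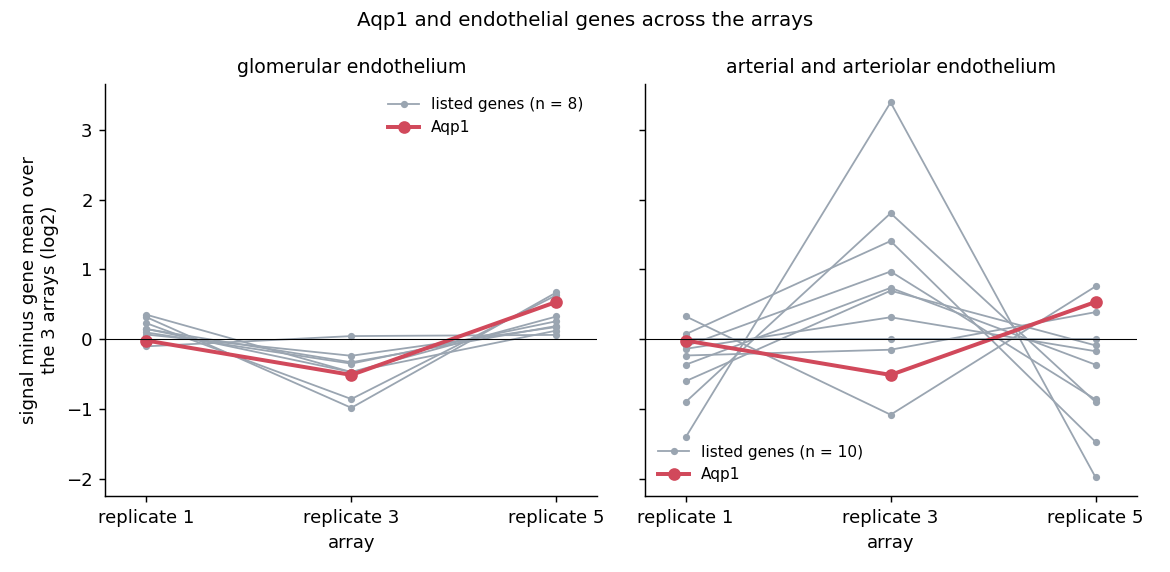
Log2 signal minus the gene's own mean over the 3 arrays, for Aqp1 (red) and for the listed genes (grey lines). The 8 genes of the glomerular endothelial list are on the left and 10 arterial and arteriolar genes on the right. On replicate 3 Aqp1 lies at -0.51, near the median of -0.41 of the list on the left. The median of the arterial genes is 0.72.

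The endothelial genes listed for the labelled cell type were high, and markers of the cells that carry the tubular aquaporins were low. All 8 genes of the glomerular endothelial list were called above the level, beside 16.8% of all probe sets. Their means lay between 8.59 and 12.54 log2. As far as the authors knew, Ehd3 alone had been shown before in GEC and not in other kidney endothelium. Its mean was 10.37 ± 0.77 log2. The list as a whole thus does not separate glomerular from other endothelium. Tek had a mean of 10.65 ± 0.43, Pecam1 of 10.26 ± 0.21 and Cdh5 of 10.75 ± 0.32 log2. The cells were sorted by the Tek promoter, so a high level of Tek is no independent check. Of 14 proximal tubule genes, 14 were called below, beside 74.1% of all probe sets. Their median was 4.10 log2, and their summed linear level ran between 296 and 310.0 over the arrays. The phosphate carrier gene Slc34a1 had 5.37 log2 and the endocytic receptor gene Lrp2 4.33 log2 on each array, and its partner Cubn had a mean of 3.45 ± 0.08 log2. Proximal tubule cells are the main site of Aqp1 in the nephron. The summed level of their markers was lowest on replicate 1 and highest on replicate 5. Aqp1 was also highest on replicate 5 but was lowest on replicate 3. Of the 14 genes, 8 were identical on all arrays. Kap varied most, with 4.05, 4.65 and 4.98 log2 on replicates 1, 3 and 5. Among the 14 genes Kap alone had the array order of the summed level, so that order is not one of the list as a whole. The part of tubule cells in the level of Aqp1 was not tested.

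Collecting duct and distal markers gave the same picture beside Aqp2, Aqp3, Aqp4 and Aqp6. Among all probe sets, 74.1% were called below the level. All 6 principal cell genes were below the level, with the vasopressin receptor gene Avpr2 at 5.07 ± 0.08 log2 and the sodium channel subunit genes Scnn1b and Scnn1g at 3.78 and 4.18 log2 on each array. All 6 intercalated cell genes were below, with the proton pump subunit genes Atp6v1g3 and Atp6v0d2 at 3.38 and 3.64 log2 and the anion exchanger gene Slc26a4 at 4.06 log2 on each array. All 8 genes of the loop of Henle and distal tubule were below, with Umod, which encodes uromodulin, at 5.15 log2, Slc12a1 at 3.56 log2 and Slc12a3 at 4.75 ± 0.04 log2. Against the olfactory receptor level, 3 of the 6 principal cell genes, 1 of the 6 intercalated cell genes and 1 of the 8 loop and distal genes were called above, beside 49.9% of all probe sets. With the other variance prior these counts were 2, 0 and 0, beside 44.4%. Whether the values of Aqp2 and Aqp3 between these levels come from principal cells was not tested. The medulla had been removed before sieving, and the parts of dissection, sieving and sorting in these low levels were not tested.

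Markers of red cells, which also carry Aqp1, were low. All 5 measured red cell genes were below the level, with Alas2, which encodes the heme synthesis enzyme of red cell precursors, at 5.28 ± 0.07 log2 and the membrane skeleton gene Epb42 at 4.12 ± 0.05 log2. Their summed linear level was 122, 127 and 121 on replicates 1, 3 and 5. All 12 leukocyte genes were below, among them Ptprc at 4.77 ± 0.18, Cd68 at 5.29 ± 0.03 and Csf1r at 4.24 log2. All 6 podocyte genes were below, with Nphs1 at 5.47 and Synpo at 5.07 ± 0.03 log2, and so were all 9 mesangial and smooth muscle genes, with Pdgfrb at 4.22 ± 0.25, Itga8 at 5.26 ± 0.72 and Meis1 at 5.28 log2. In all, 66 of 66 measured markers from these 8 other cell types were called below, beside 74.1% of all probe sets. Against the olfactory receptor level 20 of the 66 were called above, among them 4 podocyte, 4 proximal tubule, 3 leukocyte, 2 mesangial and smooth muscle and 2 red cell genes, beside 49.9% of all probe sets. With the other variance prior it was 13 of the 66, beside 44.4%.

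**Figure D4:**
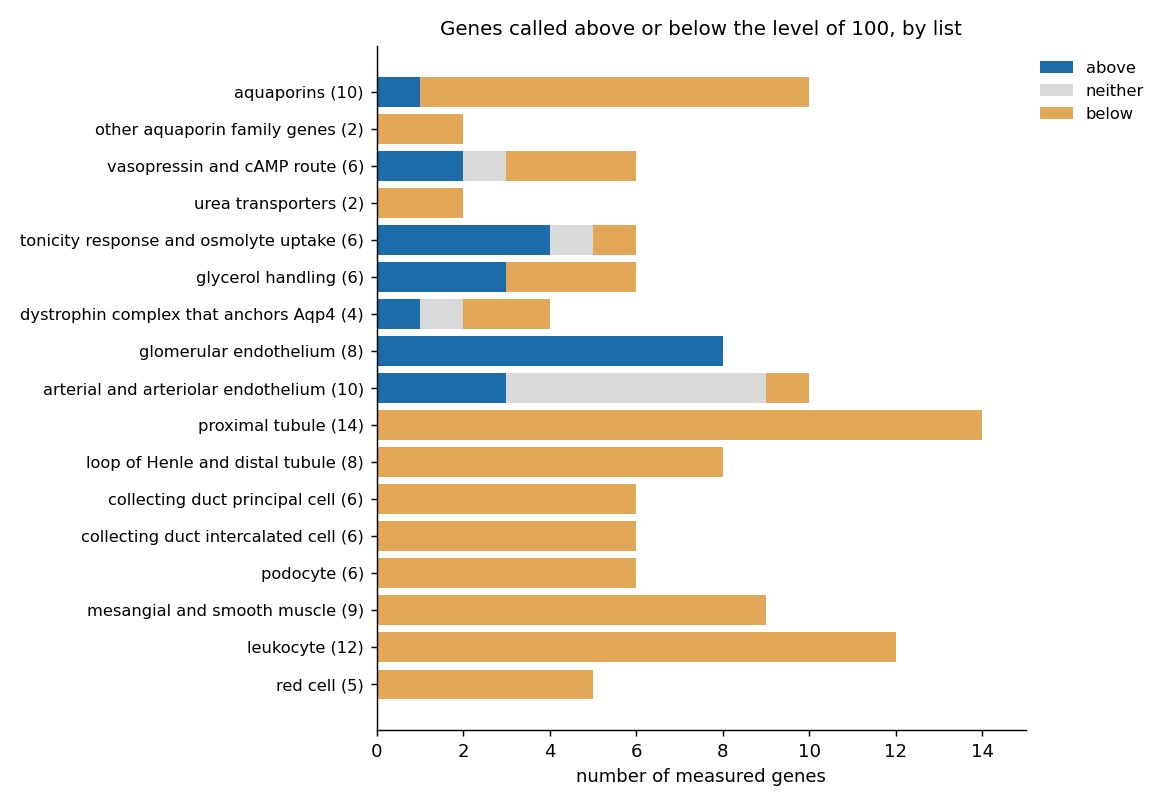
Number of measured genes of each list by limma call against the level of 100, above, neither or below (bars, number of genes, with the number measured in brackets). The aquaporins had 1 gene above and 9 below, the glomerular endothelial list had 8 of 8 above, and the lists of tubule, podocyte, mesangial, leukocyte and red cell genes had every measured gene below.

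Genes that act together with aquaporins were on both sides of the level. In the vasopressin and cAMP route, 6 of 8 listed genes were measured, with 2 called above, 3 below and 1 neither. Among all probe sets, 16.8% were above, 74.1% below and 9% neither. The receptor genes Avpr2 at 5.07 and Avpr1a at 3.70 log2 were below, as was the adenylyl cyclase gene Adcy3 at 4.74 log2. Adcy6, the cyclase isoform through which vasopressin acts in principal cells, was above the level at 7.78 ± 0.19 log2, and so was the transcription factor gene Creb1 at 8.41 log2 on each array. Prkacb, a catalytic subunit of protein kinase A, had 6.93, 7.55 and 7.93 log2 on replicates 1, 3 and 5 and was called neither, although its adjusted p was 0.0286, and it was above, with the other variance prior.

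Urea transporters share their sites with aquaporins, since Slc14a1 marks the descending vasa recta together with Aqp1 and Slc14a2 marks the inner medullary collecting duct and thin limb. Both were below the level, at 4.27 and 4.31 log2 on each array, beside 74.1% of all probe sets. Aqp1 was thus measured at 8.25 log2 in cells where the other vasa recta transporter gene lay below the olfactory receptor level. The probe sets of Aqp1 and Slc14a1 are not comparable in brightness, and only their places relative to the levels are set side by side. With the medulla removed before sieving, the part of dissection in the low levels of Slc14a1 and Slc14a2 was not tested.

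Genes of the tonicity response were mostly above the level. Of 6 measured, 4 were called above, 1 below and 1 neither, with a list median of 8.58 log2. The shares of all probe sets were 16.8%, 74.1% and 9%. Slc6a6, the taurine transporter gene, was at 11.06 ± 0.23 log2, the kinase genes Sgk1 and Wnk1 at 10.03 ± 0.45 and 9.21 ± 0.18 log2, and Nfat5, which encodes the tonicity-responsive transcription factor, at 7.96 ± 0.11 log2. The betaine transporter gene Slc6a12 was below at 4.70 ± 0.10 log2. Slc5a3, the inositol transporter gene, was called neither, with 5.49, 5.30 and 6.58 log2 on replicates 1, 3 and 5.

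Glycerol handling, the function of Aqp3, Aqp7 and Aqp9, showed both high and low genes. Of 6 measured, 3 were called above and 3 below, beside 16.8% and 74.1% of all probe sets. Mgll, which encodes monoglyceride lipase, had 9.55, 7.67 and 10.06 log2 on replicates 1, 3 and 5, and like Aqp1 it was lowest on replicate 3 and highest on replicate 5. The mitochondrial glycerol phosphate dehydrogenase gene Gpd2 was above at 7.15 ± 0.02 log2. The triglyceride lipase gene Pnpla2 was above at 6.81 log2 on each array, but the other variance prior called it neither (adjusted p = 0.235). Gpd1 at 4.85, Gpd1l at 5.39 and the hormone-sensitive lipase gene Lipe at 5.36 log2 were below on identical values.

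Of the dystrophin complex, which anchors Aqp4 in astrocyte end feet, 4 genes were measured, with 1 above, 2 below and 1 neither. The shares of all probe sets were 16.8%, 74.1% and 9%. Dmd, which encodes dystrophin, was at 3.43 log2 and the dystrobrevin gene Dtna at 4.02 log2 on each array, both below like Aqp4. Dag1, the dystroglycan gene, was called above at 6.75 log2 on each array, a call that did not hold with the other variance prior, where its adjusted p was 0.421. The syntrophin gene Sntb1 had 7.78, 7.01 and 8.17 log2 on replicates 1, 3 and 5 and was called neither, while the other variance prior gave an adjusted p of 0.0231 and a call above.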

How the data were processed

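Sorted cell RNA underwent 1 round of amplification before hybridisation to Affymetrix Mouse Gene ST arrays. The log2 signals per probe set were deposited by the authors. The submitters' notes name Affymetrix Expression Console and the study names RMA, and the set of arrays that shared a normalization is not stated there. The values run from 1.39 to 14.40, with medians of 4.85, 4.80 and 4.79 on replicates 1, 3 and 5, and were used unchanged. The number of arrays limits the precision.

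Of 35557 probe sets, 21789 name 1 gene, 1621 several and 12147 none in the platform annotation, and only the first kind was tested. All 10 aquaporins matched RefSeq (GRCm38.p6) by Entrez identifier. A gene with several probe sets was represented by that with the highest mean. An intercept-only limma 3.58.1 model (R 4.3.3) set each mean against log2 of 100 in a two-sided test. P-values were adjusted by Benjamini-Hochberg over all 21789 with a threshold of 0.05. Residual spreads of probe sets identical on all arrays (within 1e-09) were set to 0. The other variance prior used the 4406 probe sets whose 3 values differ (prior SD 0.288, 2.03 degrees of freedom). On simulated data, 100 of 21789 probe sets placed 1 log2 above the level were called above in 95% by both fits. Of 100 with a true mean at the level, the share called above was 21% and below 28% in the first fit, and 4% and 5% with the other prior. Simulated probe sets with identical values were given a common error, drawn from the spreads of probe sets with 3 distinct values. The shares depend on that assumed error.

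The aquaporins and the 6 function and 10 cell type lists were chosen with earlier results of these data known. Of 120 other listed genes, 11 had no probe set that names them alone and were not analysed here. Named are all aquaporins, all measured function list genes, the first 3 genes of each cell type list and the genes nearest to Aqp1 in deviation. Ehd3, Kap, Mgp, Eln, Hey1 and Efnb2 were named after their values were seen. Alternatives were other levels, variance priors, scalings, filters and probe set choices, and leaving out each array. Promoter windows are RefSeq sequences.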

Additional observations from a re-analysis of the deposited data

How the results depend on the processing

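No paired analysis was possible because all arrays form 1 group. At the level of 100, the counts of 1 aquaporin above and 9 below held under 7 alternatives: the other variance prior, a variance prior as a trend of level, quantile normalization, median centring, a filter on low values, all probe sets of the table and the lowest probe set of a gene. Under these the difference of Aqp1 from the level was 1.60 to 1.61 log2, with adjusted p by limma between 0.00349 and 0.0266. The choice of the lowest probe set could not change an aquaporin count, as each aquaporin has 1 probe set. The filter, at the olfactory receptor median of 3.33 log2, lay below every aquaporin mean and could remove none of them. Leaving out 1 array at a time, between 0 and 1 aquaporins were above and between 0 and 1 neither, with 9 below each time. The Aqp1 difference then ran from 1.34 to 1.87 log2 and its adjusted p by limma from 0.023 to 0.0905. The call was lost only without replicate 1, which leaves replicates 3 and 5, the lowest and the highest for Aqp1. The SE was then 0.41 log2, against 0.21 without replicate 3 and 0.19 without replicate 5.

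At the olfactory receptor level, which sets a lower bar by construction, 5 aquaporins were above and 5 below with either variance prior. The combination of that level with the other prior was chosen after seeing the data. Differences turned positive for Aqp2 at 0.63, Aqp3 at 0.86, Aqp5 at 0.70, Aqp11 at 0.85 and Aqp12 at 0.48 log2, with the same values under both priors. Of 320 counts of list members under the alternatives that keep the level of 100, 7 moved by over 1.5 times, and at the olfactory receptor level 23 of 32 did. Values below the olfactory receptor level have no order that these arrays could resolve.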
